A study of Mus musculus with 6 samples.

Results

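The globins of the mouse were followed in whole embryonic brain. Their RNA is read here as that of red blood cells circulating through the tissue, and its cell of origin was not tested. Members were all probe sets whose platform gene symbol starts with Hba or Hbb, and 10 of the 12422 probe sets on the array met this rule, under 10 of the 8949 gene symbols the platform gives. Of these, 4 belong to embryonic globins (2 for Hbb-y and 1 each for Hba-x and Hbb-bh1), 5 to adult globins and 1 to the pseudogene Hba-ps3. The platform gives 1 symbol for 7 of them. A pair of probe sets each carry 4 adult beta symbols (Hbb-bt, Hbb-bs, Hbb-b2 and Hbb-b1); the bright one is called the shared beta probe set below. The shared alpha probe set carries both adult alpha symbols (Hba-a2 and Hba-a1). Of the Hbb-y probe sets, the one whose identifier has the suffix f is called the family probe set, and the other the first. Hbb-b1 is represented by these shared probe sets alone.

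The tissue was whole brain from embryonic days E14.5, E16.5 and E18.5. Control embryos were Top2b+/+; mutant embryos were labelled top2b-/-, that is mutant in both copies of the gene for the β form of DNA topoisomerase II. All embryos were of strain 129SvEv with a small share of 129SvJ, and 1 oligonucleotide array was hybridised for each genotype at each age, 6 in all. The embryos were male on 5 arrays, and the top2b-/- embryo of E16.5 was female. The number of brains behind each array, any removal of blood and the making of the allele are not stated in the labels. The study asked how topoisomerase IIβ bears on gene expression.

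Hemoglobin pairs alpha-like with beta-like chains, and in the mouse the genes lie in an alpha cluster on chromosome 11 and a beta cluster on chromosome 7. The first, primitive red cells arise in the yolk sac and make the alpha-like chain encoded by Hba-x (zeta) and the beta-like chains encoded by Hbb-bh1 and Hbb-y (epsilon y), next to adult chains. Definitive red cells, which come from the fetal liver, make adult alpha and beta chains and replace the primitive cells in the fetal circulation. In RefSeq's annotation the embryonic genes are the upstream ones: along the direction of transcription Hba-x stands before Hba-a1 and Hba-a2, and Hbb-y before Hbb-bh1, Hbb-bs and Hbb-bt. The pseudogene Hba-ps3 lies on chromosome 15.

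The promoters of 4 of these genes are shown because embryonic and adult probe sets of each cluster had different courses on the arrays. Hbb-bs, the adult beta gene shown, was read only by probe sets shared with other adult beta genes. Its own course is thus not known. No promoter was available for Hbb-b2, which has its own probe set. Each is the 250 bases before the annotated start, from RefSeq (GRCm38.p6, a C57BL/6J genome and so not the strain studied), read 5′ to 3′ on the gene's strand. Capitals mark the letters CACCC, to which Krüppel-like factors are known to bind, CCAAT, which binds the factor NF-Y, GATAA, bound by the erythroid factor Gata1, and TATAA, which positions the polymerase, on either strand, where a match on the other strand appears as its reverse complement. No matches overlapped. Hbb-y lies at chr7:103853208-103853457 (minus strand), Hbb-bs at chr7:103827929-103828178 (minus strand), Hba-x at chr11:32276350-32276599 (plus strand) and Hba-a1 at chr11:32283422-32283671 (plus strand).
Hbb-y: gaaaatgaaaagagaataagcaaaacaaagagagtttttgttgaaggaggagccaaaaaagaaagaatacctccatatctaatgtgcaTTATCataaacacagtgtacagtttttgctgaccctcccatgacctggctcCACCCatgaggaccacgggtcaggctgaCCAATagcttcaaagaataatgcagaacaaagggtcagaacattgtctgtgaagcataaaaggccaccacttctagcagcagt
Hbb-bs: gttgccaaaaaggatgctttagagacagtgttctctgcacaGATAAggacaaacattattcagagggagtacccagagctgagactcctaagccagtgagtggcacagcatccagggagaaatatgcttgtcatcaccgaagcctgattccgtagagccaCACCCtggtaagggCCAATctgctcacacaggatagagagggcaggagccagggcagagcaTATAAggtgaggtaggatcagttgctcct
Hba-x: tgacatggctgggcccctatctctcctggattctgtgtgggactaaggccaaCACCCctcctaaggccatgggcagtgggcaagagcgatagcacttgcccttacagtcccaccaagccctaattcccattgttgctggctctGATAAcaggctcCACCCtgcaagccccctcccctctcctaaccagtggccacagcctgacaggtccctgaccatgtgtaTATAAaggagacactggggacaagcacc
Hba-a1: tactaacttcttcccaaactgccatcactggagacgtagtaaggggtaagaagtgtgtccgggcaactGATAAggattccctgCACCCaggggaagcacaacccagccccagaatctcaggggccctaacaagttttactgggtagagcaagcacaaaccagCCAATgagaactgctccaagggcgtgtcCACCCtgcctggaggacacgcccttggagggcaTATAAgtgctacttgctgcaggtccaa

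Of the 10 gene symbols attached to the globin probe sets, 6 had a promoter in the table (Hbb-y, Hbb-bs, Hbb-bt, Hba-x, Hba-a1 and Hba-a2). CACCC and GATAA occurred in all 6, against 52.0% and 22.6% of the 32851 promoter windows of that length in the table. CCAAT occurred in 5 of the 6, all but Hba-x, against 33.8% of windows, and TATAA in 5 of the 6, all but Hbb-y, against 22.8%. The CACCC nearest the start began 111 bases before it in Hbb-y, 95 in Hba-x, 90 in Hbb-bs and 60 in Hba-a1. Embryonic and adult promoters thus share most of these letters, and a match describes the sequence, not a bound site.

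Intensities are linear and were scaled here so that each array had the same median, with factors of 0.919 to 1.38. The Top2b+/+ brain of E16.5 had the largest factor. On each array a noise limit, the size of the 5th percentile of its values, lay between 26.9 and 40.7. By rising age, Top2b itself read 538, 281 and 326 in Top2b+/+ brains and 48.1, 45.6 and 34.4 in top2b-/- brains. Its signal was thus lower in every mutant brain, where it lay just above the noise limits of 39.4, 40.7 and 32.4. Whether any Top2b RNA remained there is not resolved at that level. The neuronal transcripts Tubb3, Stmn2 and Gap43 were above the noise limit on all 6 arrays, as were the progenitor transcripts Nes, Sox2 and Fabp7. The neuronal transcript Map1b lay within the noise on all 6 arrays. Albumin (Alb) and alpha-fetoprotein (Afp), the main plasma protein genes of fetal liver, lay within the noise on all 6 arrays. White blood cell markers were mixed. Ptprc, the pan-leukocyte phosphatase CD45, lay within the noise on all 6 arrays, as did Lyz2 and Cd3e. Elane, Prtn3, Camp, Ms4a1 and Cd4 were above the noise limit on all 6. In bulk tissue, fewer cells of a type and less RNA per cell cannot be told apart.

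Embryonic globin RNA was abundant at E14.5 and had almost disappeared at E18.5, in both genotypes. Hbb-y read 5104, 210 and 26.5 in Top2b+/+ brains, by rising age, on the first probe set, and 4997, 84.4 and 31.1 in top2b-/- brains. Both E18.5 readings lay within the noise, and the ages did not overlap. At E14.5 this probe set ranked 59th and 55th of all 12422 by intensity, in Top2b+/+ and top2b-/- brains.
On the Hbb-y family probe set the readings were 6281, 493 and 35.0 in Top2b+/+ brains and 5584, 169 and 62.5 in top2b-/- brains. By Affymetrix naming its suffix marks probes shared within a sequence family, so part of its signal may come from related globins. It too fell without overlap between ages, and its E18.5 readings stayed above the noise limits of 32.8 and 32.4.
Hba-x, the embryonic alpha-like chain, read 2572, 252 and 57.8 in Top2b+/+ brains and 2535, 137 and 47.0 in top2b-/- brains. It was above the noise on every array, but at E18.5 only 1.76 times the limit in the Top2b+/+ brain and 1.45 times in the top2b-/- brain.

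Hbb-bh1, the other embryonic beta-like gene, was near the noise. It read 94.7 in the Top2b+/+ brain and 197 in the top2b-/- brain at E14.5, and lay within the noise on the other 4 arrays. Its mean over arrays put it below the filter on dim probe sets, so it was not tested. In the first step, from E14.5 to E16.5, it was at least 3.52-fold lower in Top2b+/+ and at least 4.85-fold lower in top2b-/- brains. In primitive red cells Hbb-bh1 transcripts are known to decline before those of Hbb-y. The E14.5 reading was 2.09-fold higher in top2b-/- than in Top2b+/+ brain, a difference between 2 single arrays.

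**Figure D1:**
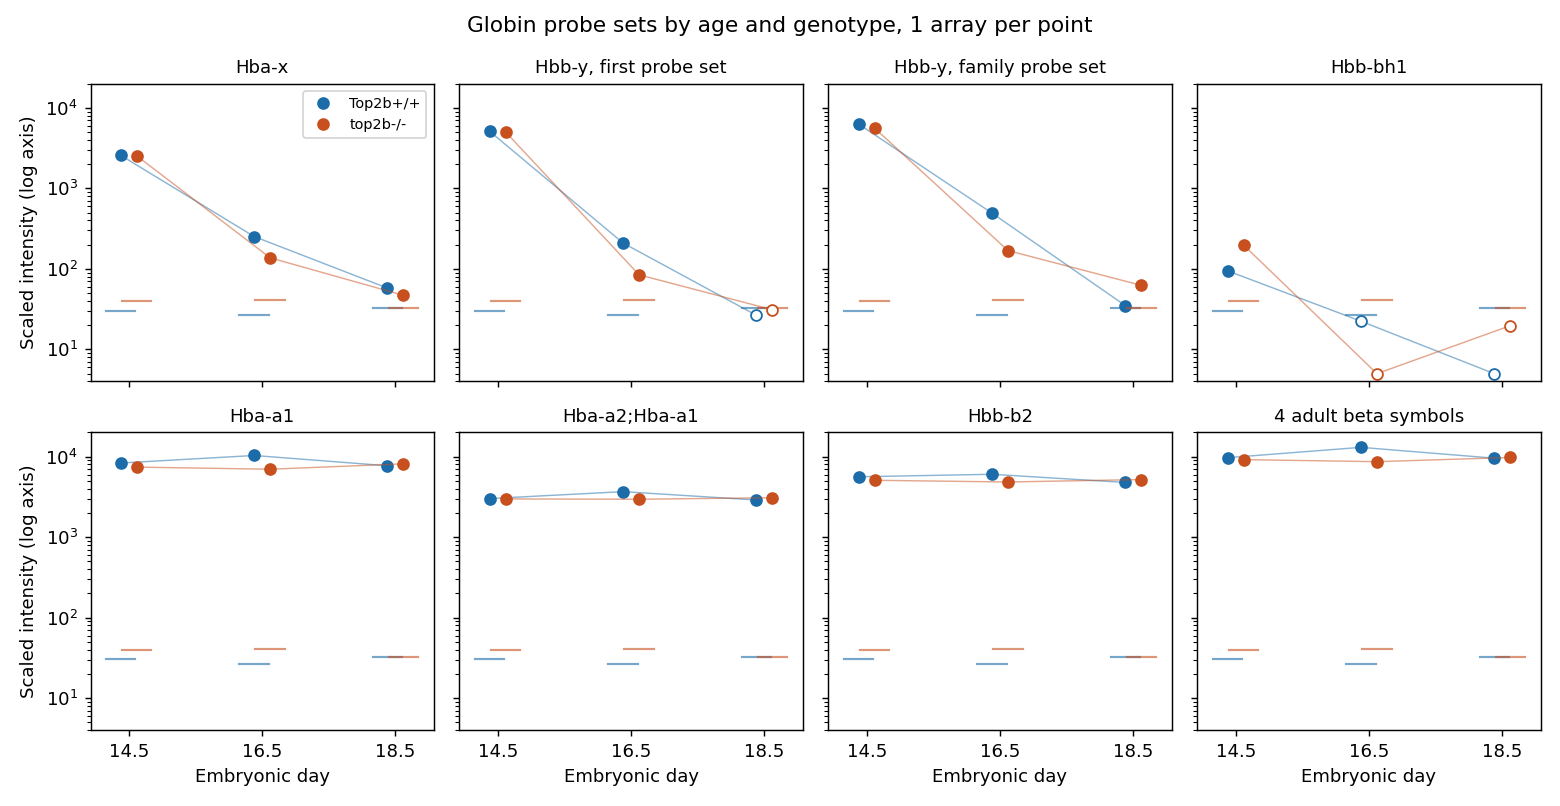
Scaled intensity (log axis) of 8 globin probe sets against embryonic day, embryonic members in the top row and adult members in the bottom row, with 1 array per point and the 2 genotypes set slightly apart. Short bars are each array's noise limit, open circles lie within it, and values under 5 are drawn at 5; the Hbb-y and Hba-x probe sets fall from 2535 to 6281 at E14.5 to at most 62.5 at E18.5, while adult members stay level.

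The fall of the embryonic globins held up against the spread between arrays. In the fit over all 6 arrays, with genotype and age as terms, the difference between E18.5 and E14.5 was -5.62 ± 0.23 (log2, SE) for Hba-x, a 49.0-fold fall (limma, adjusted p = 0.00528). Hbb-y differed by -7.46 ± 0.38 on the first Hbb-y probe set (limma, adjusted p = 0.00824), where readings within the noise make it a fall of at least 155-fold, and by -6.98 ± 0.52 on the Hbb-y family probe set (limma, adjusted p = 0.0232). These were the 3 lowest age differences among all 7453 probe sets tested. Thus 3 of the 8 globin probe sets that passed the dim filter fell past the threshold, against 0.899% of all probe sets tested. Both E18.5 arrays lay below both E14.5 arrays for the same 3 members, which was so for 32.3% of all probe sets. The 3 calls ended with no dim filter (adjusted p = 0.134, 0.145 and 0.176 for Hba-x, the first Hbb-y probe set and the Hbb-y family probe set) and without the intensity trend in limma's variance estimate (adjusted p = 0.0602, 0.0602 and 0.0749), with the differences themselves unchanged. With any 1 array left out all 3 passed.

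For Hba-x and the Hbb-y family probe set, the fitted log2 fall was larger before E16.5 than after it. Their E18.5 readings were at most 1.93 times the noise limit, so the sizes of their later falls are uncertain. On the first Hbb-y probe set both E18.5 readings lay within the noise. Its later fall is thus at least 4.08-fold, and its steps cannot be ordered by size. On single arrays of the family probe set the first step was the larger in top2b-/- brains (-5.05 and then -1.43). In Top2b+/+ brains the order depended on the processing. It was -3.67 and then -3.81 as scaled, -4.26 and then -3.32 as deposited, and -3.81 and then -3.77 after quantile normalization. The Top2b+/+ reading at E18.5 was 1.07 times its noise limit. Between E14.5 and E16.5 Hba-x fell by 3.78 ± 0.23 on the log2 scale (limma, adjusted p = 0.0470), the only 1 of 7453 probe sets past the threshold (0.0134%) and a call that ended with no dim filter (adjusted p = 0.255) and without the trend (adjusted p = 0.266). Hbb-y had -5.25 ± 0.38 on the first Hbb-y probe set (adjusted p = 0.0567, limma) and -4.36 ± 0.52 on the Hbb-y family probe set (adjusted p = 0.188, limma), so neither passed in this step. Between E16.5 and E18.5 the same 3 probe sets had -1.84 ± 0.23, -2.21 ± 0.38 and -2.62 ± 0.52, with limma adjusted p from 0.320 to 0.475. No probe set of any gene passed in that step with limma, while 515 had an unadjusted p under 0.05, the 3 embryonic globins among them.

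On single arrays, with no replicate, the first step was larger in top2b-/- brains. From E14.5 to E16.5 Hbb-y fell 24.3-fold in Top2b+/+ and 59.2-fold in top2b-/- brains on the first Hbb-y probe set, and 12.7-fold and 33.1-fold on the Hbb-y family probe set. Hba-x fell 10.2-fold in Top2b+/+ and 18.45-fold in top2b-/- brains. The second step starts from the same E16.5 arrays, so its size is not independent of the first. From E16.5 to E18.5 Hba-x fell 4.37-fold in Top2b+/+ and 2.92-fold in top2b-/- brains (3.11-fold and 2.87-fold as deposited), and the family probe set 14.1-fold and 2.70-fold. The same order of genotypes in the first step, with smaller gaps, was seen in the deposited intensities, at 36.5-fold and 56.9-fold for the first Hbb-y probe set, 19.1-fold and 31.8-fold for the Hbb-y family probe set and 15.3-fold and 17.7-fold for Hba-x. At E16.5 the top2b-/- embryo was female and the Top2b+/+ embryo male, so genotype and sex cannot be told apart at that age.

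**Figure D2:**
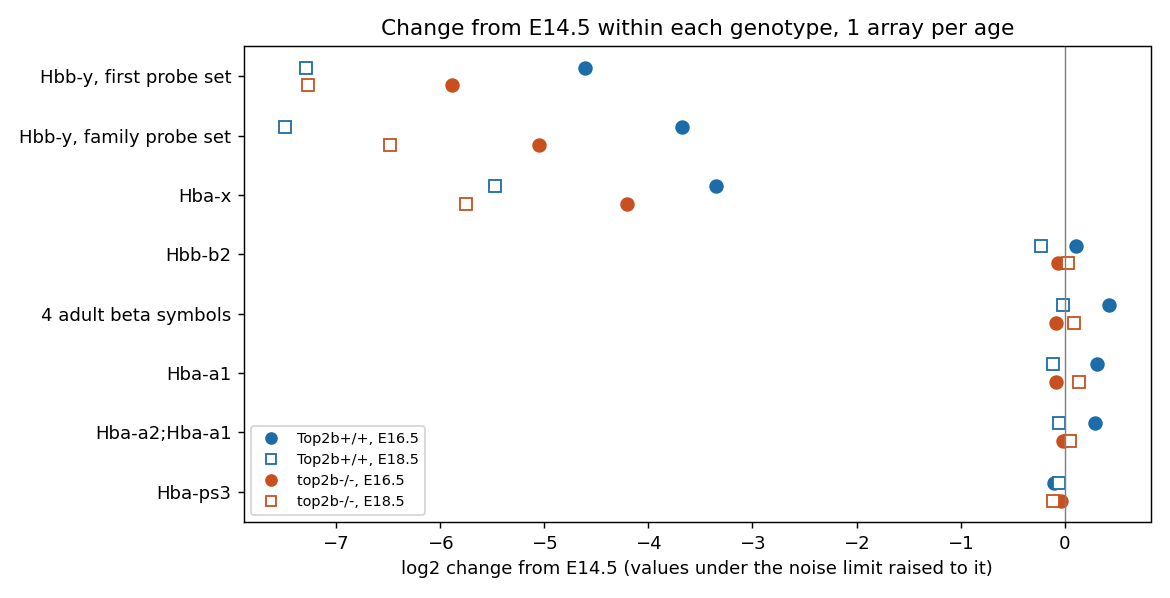
Change in log2 intensity from E14.5 within each genotype for 8 globin probe sets, from 1 array per age, with values under the noise limit raised to it; circles are E16.5 and open squares E18.5. The Hbb-y and Hba-x probe sets lie between -3.35 and -7.49 (Hbb-bh1, not tested, is not drawn), and adult members and the pseudogene between -0.23 and 0.43.

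Adult globin RNA was high at every age and did not change past the threshold. The shared beta probe set read 9707, 13046 and 9568 in Top2b+/+ brains and 9184, 8662 and 9767 in top2b-/- brains. It ranked 3rd or 4th of all probe sets on every array. Hbb-b2, the beta-minor chain, read 5622, 6041 and 4781 in Top2b+/+ brains and 5086, 4846 and 5192 in top2b-/- brains.
Hba-a1, an adult alpha chain, read 8339, 10339 and 7705 in Top2b+/+ brains and 7416, 6981 and 8138 in top2b-/- brains. The shared alpha probe set read between 2895 and 3676. In each of these 4 the ages overlapped.

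Between E14.5 and E18.5 the log2 differences were 0.03 ± 0.21 for the shared beta probe set, -0.10 ± 0.16 for Hbb-b2, 0.01 ± 0.20 for Hba-a1 and -0.0047 ± 0.15 for the shared alpha probe set (limma, adjusted p from 0.771 to 0.991). The signs of Hbb-b2 and of the shared alpha probe set turned after quantile normalization (0.07 and 0.06). Over all probe sets tested the median was -0.05. With SEs of 0.15 to 0.21, a modest rise or fall would not have been seen here. The brightness of these probe sets limits what they can show as well: the highest deposited intensities on the arrays were 9760 to 11733, and whether the adult globin signal was saturated was not tested.

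The remaining members were an adult beta probe set and the pseudogene. The second probe set annotated to the 4 adult beta symbols lay within the noise on all 6 arrays (-5.41 to 2.48), and was neither tested nor counted with the adult members below. The pseudogene Hba-ps3 read 744 to 872, with a log2 difference of -0.08 ± 0.12 between E18.5 and E14.5 (limma, adjusted p = 0.734). Whether that signal comes from the pseudogene or from transcripts of similar sequence was not tested.

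Setting an embryonic against an adult probe set on the same array removes any factor common to the array, such as its scaling, and leaves the unequal change between them. It does not remove a factor that varies with intensity, such as the uneven dimming of the Top2b+/+ array of E16.5 given below. The log2 difference between the first Hbb-y probe set and Hbb-b2 went from -0.14 to -4.85 and then to at most -7.19 in Top2b+/+ brains, and from -0.03 to -5.84 and then to at most -7.32 in top2b-/- brains. For Hba-x and Hba-a1 it went from -1.70 to -5.36 and -7.06 in Top2b+/+ brains and from -1.55 to -5.67 and -7.44 in top2b-/- brains. The starting value has no meaning of its own, since 2 probe sets need not give equal signal for equal RNA. Over all 4 embryonic and 4 adult members, with values raised to the noise limit, the mean difference was -1.86 at E14.5 and then at most -5.51 and -7.20 in Top2b+/+ brains, and -1.55 and then at most -5.84 and -7.16 in top2b-/- brains, since Hbb-bh1 at both later ages and the first Hbb-y probe set at E18.5 lay within the noise. The beta pair and the alpha pair thus changed in the same order of ages in both genotypes. At E16.5 both differences were further below 0 in the top2b-/- brain, with 1 array a side and embryos of different sex.

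No globin differed between genotypes past the threshold over the 3 ages. Of the 8 tested, 0 passed with limma (0.0403% of all probe sets did), 0 had an unadjusted p under 0.05, and adjusted p ran from 0.757 to 0.881. The log2 differences, top2b-/- minus Top2b+/+, were -0.40 ± 0.19 for Hba-x, -0.37 ± 0.31 for Hbb-y on the first Hbb-y probe set and -0.29 ± 0.43 on the Hbb-y family probe set. Adult members had -0.08 ± 0.12 to -0.22 ± 0.17, and Hba-ps3 had 0.13 ± 0.10. Without either array of E16.5 both Hbb-y values turned positive, to 0.10 and 0.33. The difference between genotypes in change per day did not pass for any globin either (0 of 8 with limma, 0 with an unadjusted p under 0.05; 0% of all probe sets tested), with values from -0.07 ± 0.12 for Hba-x to 0.25 ± 0.24 for the Hbb-y family probe set. That term is a straight line over age and cannot show a difference at the middle age alone.

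At single ages, with 1 array a side and so no test, most members lay close together between genotypes at E14.5. Hba-x, both Hbb-y probe sets and the adult members above the noise differed by at most 0.17 on the log2 scale. The dim Hbb-bh1 was the exception, 2.09-fold higher in the top2b-/- brain. At E16.5 the top2b-/- brain was 2.48-fold lower on the first Hbb-y probe set, 2.92-fold lower on the Hbb-y family probe set and 1.84-fold lower for Hba-x. Both Hbb-y probe sets were thus at least 2-fold lower, as were 4.56% of all probe sets tested at that age. In the deposited intensities, without scaling, the same differences were 1.70-fold, 1.99-fold and 1.26-fold. At E18.5 Hba-x differed by 1.23-fold, the first Hbb-y probe set was within the noise in both brains, and the Hbb-y family probe set was 1.78-fold higher in the top2b-/- brain.

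Adult globins at E16.5 depended on the scaling. After scaling, Hba-a1 differed by -0.57 and the shared beta probe set by -0.59 on the log2 scale, top2b-/- minus Top2b+/+, but in the deposited intensities by -0.02 and -0.04, and after quantile normalization by -0.04 and 0.04. Hbb-b2 and the shared alpha probe set had -0.32 and -0.31 after scaling, and 0.23 and 0.24 as deposited. The Top2b+/+ array of E16.5 was dimmer than the others as deposited, with a median difference of -0.44 on the log2 scale over the probe sets tested. It was less so for the 50 brightest other probe sets (-0.13) and for the 4 adult globin probe sets (-0.18). The part of this uneven dimming in the adult values at E16.5 was not tested.

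**Figure D3:**
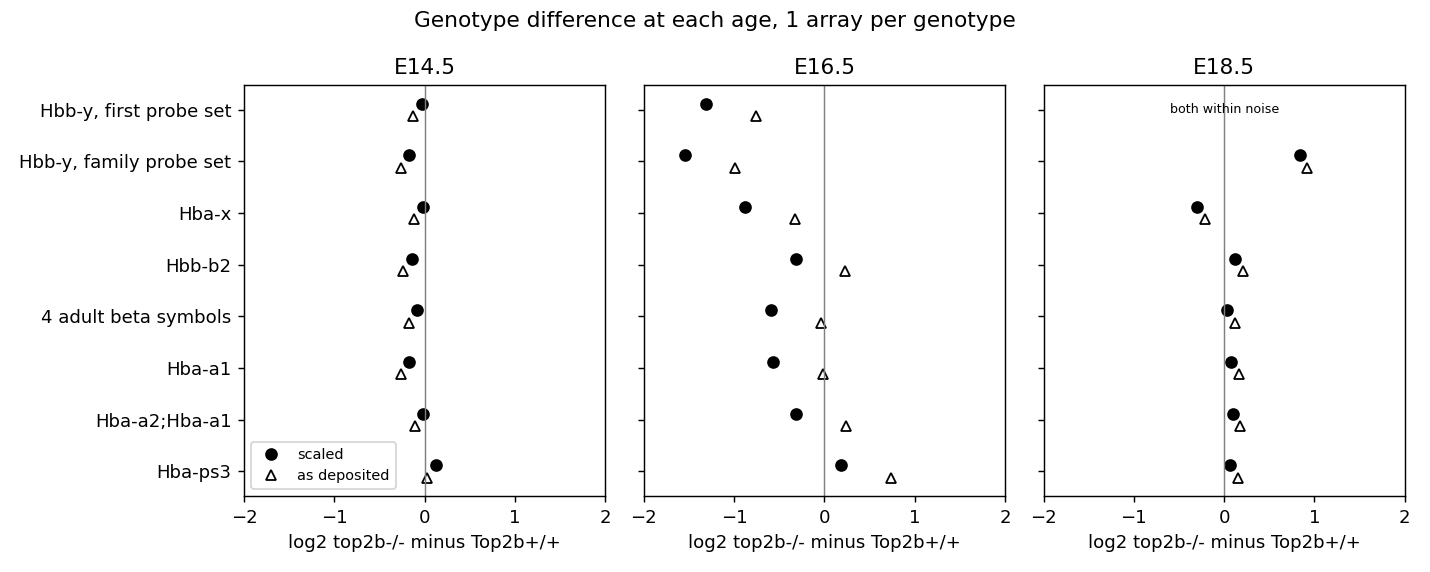
Difference between genotypes (log2, top2b-/- minus Top2b+/+) for 8 globin probe sets at each age, from 1 array per genotype, as scaled (filled circles) and as deposited (open triangles), with values under the noise limit raised to it. At E16.5 the 2 Hbb-y probe sets and Hba-x lie below 0 either way, while the adult members lie between -0.59 and -0.31 scaled and between -0.04 and 0.24 as deposited.

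Other genes of the red cell that could be tested did not fall past the threshold with age. Epb42, Epor, Car1 and Pklr lay within the noise on all 6 arrays and were not tested. Of 43 tested genes in 4 red cell lists (heme synthesis, membrane and surface, transcription factors, enzymes and chaperones), 0 passed the age comparison with limma (1.49% of all probe sets did, in either direction), 24 had lower and 19 higher values at E18.5, and their median log2 difference was -0.07, beside -0.05 over all probe sets. None passed the genotype comparison either. These lists hold genes that brain cells also express, and such RNA cannot be told apart from that of blood here.

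In the heme synthesis list 0 of 11 tested genes passed, with a median of 0.09. Its brightest members were the mitochondrial carrier Slc25a39 (0.09 ± 0.14), Alad, which makes porphobilinogen (0.23 ± 0.18), and Alas1, the first enzyme of the pathway outside red cells (0.24 ± 0.20). Alas2, the red cell form of that first enzyme, was singled out after its values were seen: it read 340, 385 and 305 in Top2b+/+ brains and 312, 306 and 355 in top2b-/- brains. Its level overlapped between all ages (0.02 ± 0.18; limma, adjusted p = 0.972), as did that of the adult globins.

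In the membrane and surface list 0 of 8 passed (median -0.09), led in brightness by the transferrin receptor Tfrc (-0.10 ± 0.15), the membrane anchor Ank1 (0.13 ± 0.14) and Mpp1, a palmitoylated membrane protein (-0.61 ± 0.29). Slc4a1, the anion exchanger band 3 of the red cell membrane, was also singled out after its values were seen. It read 74.9, 62.2 and 13.5 in Top2b+/+ and 49.3, 43.5 and 21.6 in top2b-/- brains, the E18.5 readings within the noise. It did not pass (limma, adjusted p = 0.117), and the size of its difference is not resolved. Of 14 transcription factors 0 passed (median -0.09), with Lmo2 at -0.46 ± 0.16, Klf1, the activator of adult beta globin, at -0.06 ± 0.27, and Ldb1, which bridges enhancers and promoters, at 0.02 ± 0.14. Klf1 read 244 to 400 on the 6 arrays. Of 10 enzymes and chaperones 0 passed (median -0.16), with the peroxidase Prdx2 at -0.26 ± 0.16, Hk1 at -0.20 ± 0.19 and Xpo7 at 0.08 ± 0.14.

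The lists of neighbouring cells and of hemoglobin disposal did not pass either. Hemoglobin and iron handling genes had a median of -0.06 over 9 tested, with ferritin heavy chain Fth1 at 0.28 ± 0.17, the iron importer Slc11a2 at -0.17 ± 0.13 and the heme oxygenase Hmox1 at -0.06 ± 0.13. Endothelial markers had a median of -0.16 over 10, with Cldn5, Kdr and Cdh5 at 0.46 ± 0.25, -0.19 ± 0.18 and -0.34 ± 0.31. Their summed intensity was 1473 to 2159 in Top2b+/+ and 1455 to 1659 in top2b-/- brains. Microglia and macrophage markers had a median of 0.34 over 9, with C1qc, Lgmn and Cx3cr1 at 0.56 ± 0.38, 0.35 ± 0.19 and 0.34 ± 0.24. White blood cell markers had a median of 0.25 over 6 tested of 17 on the array, with Camp, Cd4 and Ms4a1 at 0.18 ± 0.32, 0.75 ± 0.32 and -0.02 ± 0.23. Only 2 platelet genes (Vwf 1.33 ± 0.58, Gp9 -0.79 ± 0.52) and 2 plasma protein genes (Ttr, also made by choroid plexus, 0.14 ± 0.41, and Apoa2 -1.47 ± 0.65, with 1 reading within the noise) could be tested. Myoglobin (Mb) lay within the noise on all 6 arrays, and the part of any of these cells in the globin values was not tested.

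**Figure D4:**
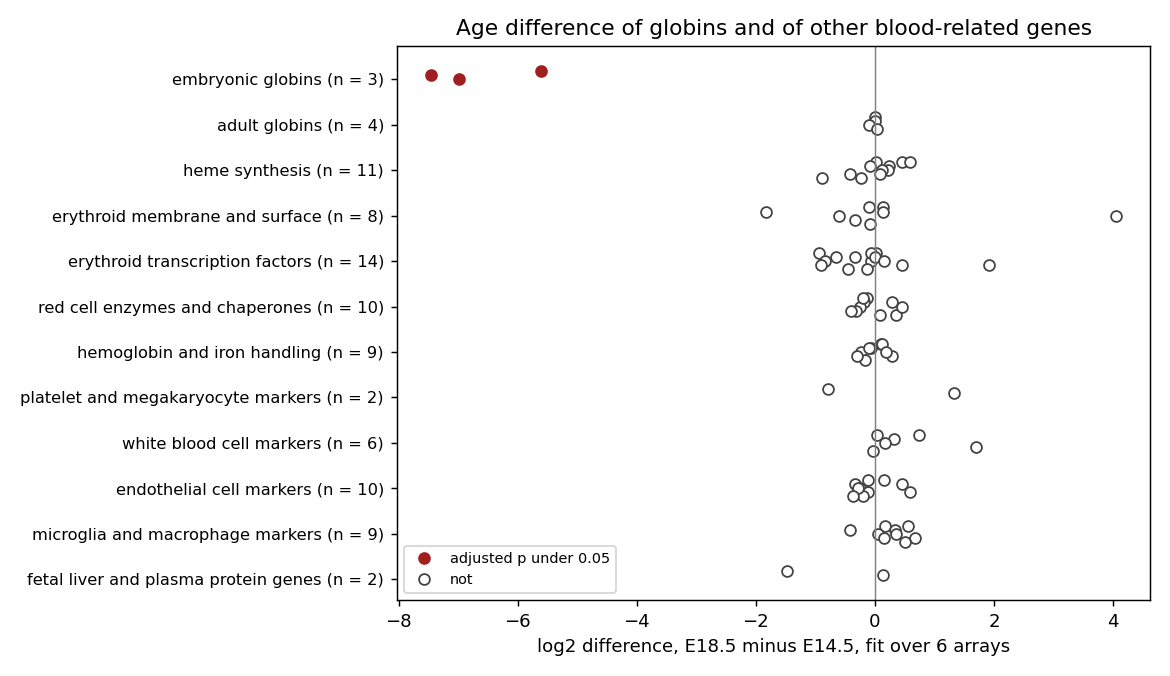
Difference between E18.5 and E14.5 (log2, fit over 6 arrays) for each tested probe set of the embryonic and adult globins and each tested gene of 10 blood-related lists; filled points have an adjusted p under 0.05 and open points do not. The 3 embryonic globin probe sets stand between -7.46 and -5.62, and the genes of the lists between -1.83 (Slc4a1) and 4.06 (Dmtn), which both have readings within the noise and no call.

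Among 351 other probe sets that ranged by at least 2 on the log2 scale, those with the courses most like the mean of the 4 embryonic members over the 6 arrays were Dtl (Pearson r = 0.95), Anln (0.95), Ttk (0.94), Bub1 (0.94) and Cdk1 (0.93). Their falls were far smaller: Cdk1 read 810, 577 and 162 in Top2b+/+ and 806, 324 and 175 in top2b-/- brains. Most like the mean of the 4 adult members were Nefm (0.93), Zic4 (0.88), Tm7sf2 (0.86), Mogs (0.80) and Thap7 (0.78), each of which read highest on the Top2b+/+ array of E16.5, the array with the largest scaling factor. These correlations describe 6 arrays that share their scaling.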

How the data were processed

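Values are the linear intensities that the authors deposited, 1 per probe set of an Affymetrix MG_U74Av2 array. Per the labels, total RNA was labelled with biotin, with extraction by Trizol and RNeasy and in vitro transcription recorded for 1 sample, and per the series' design text the data were analysed in Rosetta Resolver. The method of probe summary and any scaling are not given in the sources used here. After leaving out 66 control probe sets, each array was scaled to the mean of the 6 medians, values were floored at the pooled 20th percentile (2.39) and put on the log2 scale, and 7453 probe sets remained after a filter at the 40th percentile of the mean over arrays (37.0 as an intensity). Models were fitted in R 4.3.3 by limma 3.58.1 (eBayes with an intensity trend), with genotype and the 3 ages as terms (2 residual degrees of freedom), a second fit with genotype by day, and Benjamini-Hochberg adjustment over all 7453 at a threshold of 0.05. The code was tested on simulated data. For E18.5 against E14.5, 9.05% of the calls there were false, more than the threshold of 0.05 allows. Of simulated log2 changes of 1, 56.8% were recovered, and of changes of 5, 99.6%. As each genotype and age has 1 array, the ages replicate the genotypes and the reverse, and p-values speak of these arrays; the number of arrays limits the precision. A fold is "at least" where a reading lay within the noise and was raised to the noise limit.

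Gene symbols are those GEO's platform annotation gives, brought up to date through Entrez IDs in a RefSeq table (GRCm38.p6; 10817 of 10833 probe sets with 1 symbol matched). Gene lists used the brightest probe set of each gene. The rule for names was every globin probe set; for each list the members past the threshold, otherwise the 3 brightest; and the 5 most alike patterns for embryonic and for adult members. Members, lists and tests were chosen with earlier results of these data known. Alternatives covered scaling, floor, dim filter, trend, age as a line and each array left out.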

Additional observations from a re-analysis of the deposited data

Results flagged for a closer look

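Hbb-y on its family probe set differed between genotypes in opposite directions at neighbouring ages. The log2 difference, top2b-/- minus Top2b+/+, was -1.55 at E16.5 and 0.83 at E18.5, and it kept these signs in the deposited intensities (-0.995 and 0.92). The Top2b+/+ reading at E18.5 was 1.07 times its noise limit, so the direction at that age rests on a level at the noise. Each value compares 1 array with 1 array, and the difference between the ages was not tested. The other Hbb-y probe set lay within the noise in both brains at E18.5.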

How the results depend on the processing

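With 1 array per genotype and age, no genotype difference at a single age can be tested, and the E18.5 levels of Hbb-y and Hbb-bh1 are limited by the noise. The labels give no replicate numbers, and the age differences were fitted with genotype as a term. Hba-x and both Hbb-y probe sets kept their fall from E14.5 to E18.5 under every alternative, and all 3 passed under 6 of 8 settings and with each array left out.

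With no scaling, limma's variance estimate rested on the intensity trend alone, not on each probe set's own spread. Passes of the age and genotype fit under that setting are thus not on a par with the others. From E14.5 to E18.5, 3 globin probe sets passed, and 0 did with no dim filter or without the intensity trend. Over all probe sets, 111 passed (44 higher, 67 lower). The count was 354 with no scaling (199 higher), 264 after quantile normalization (153 higher), 174 with the floor at the noise limit, 4 with no filter, 225 with a stricter filter, 0 without the trend and 175 with age as a line. It was 3 to 17 with 1 array left out. Adult values turned sign after quantile normalization (the shared alpha probe set 0.058, Hbb-b2 0.07), and with 1 array left out they ran from -0.21 to 0.23 for Hba-a1, -0.13 to 0.12 for the shared alpha probe set, -0.28 to 0.073 for Hbb-b2 and -0.15 to 0.22 for the shared beta probe set.

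From E14.5 to E16.5, 1 globin passed and 1 probe set over all. These were 3 and 119 with no scaling, 2 and 2 with the noise floor, 0 and 4 with no filter, 2 and 2 with the stricter filter, and 0 and 0 without the trend. With no scaling Hba-a1 turned to -0.15, the shared alpha probe set to -0.13, Hbb-b2 to -0.25 and the shared beta probe set to -0.093. From E16.5 to E18.5, 0 and 0 passed, against 3 and 65 with no scaling, and 1 over all with no filter. With no scaling Hba-a1, the shared alpha probe set, Hbb-b2, the shared beta probe set and Hba-ps3 turned to 0.16, 0.12, 0.14, 0.12 and 0.25, and after quantile normalization to 0.015, 0.032, 0.068, 0.021 and 0.095.

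Between genotypes 3 probe sets passed, against 110 with no scaling, 8 with the noise floor, 0 after quantile normalization, with no filter or without the trend, and 0 to 5 with 1 array left out. With no scaling the shared alpha probe set turned to 0.10 and Hbb-b2 to 0.066. After quantile normalization Hba-a1, the shared alpha probe set, Hbb-b2 and the shared beta probe set turned to 0.0012, 0.039, 0.013 and 0.014. With 1 array left out the values ran from -0.67 to 0.10 for the first Hbb-y probe set, -0.86 to 0.33 for the Hbb-y family probe set and -0.16 to 0.040 for the shared alpha probe set. For the change per day, 0 passed, against 27 with no scaling, and Hba-ps3 turned to 0.031 with no scaling and 0.0067 after quantile normalization.

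The mean embryonic minus adult difference with values at the lower floor of 2.39 was -1.86, -5.57 and -8.22 in Top2b+/+ and -1.55, -6.87 and -7.35 in top2b-/- brains. Raised to the noise limit, it was at most -5.51 and -7.20 at E16.5 and E18.5 in Top2b+/+ and -5.84 and -7.16 in top2b-/- brains. With medians it was -0.92, -5.10 and -7.64, and -0.79, -5.76 and -7.41. The cause of these shifts was not tested.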
